A study of Mus musculus with 8 samples.

Results

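The genes described here encode the subunits of the 26S proteasome, measured by RNA sequencing of brown adipose tissue (BAT) from control and cachectic mice. They were chosen by name, as the symbols Psma, Psmb, Psmc and Psmd followed by a number, without the inducible subunits Psmb8, Psmb9 and Psmb10 and without the pseudogene entries that carry the ending -ps. The choice gave 36 genes of 56953 in the count table, and 34 of them had enough reads to be among the 9876 genes tested. They lie on 16 chromosomes, with at most 6 on 1 of them.

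The control group (CTR) and the cancer-associated cachexia group (CAC) held 4 mice each, with 1 library per mouse. All mice were C57BL/6J animals of WT genotype, male or female by the protocol, 8 to 10 weeks old at injection and kept at 21 °C. CAC mice received 3000000 Lewis lung carcinoma (LLC) cells, a mouse lung tumor line grown as a graft in animals of the same strain, under the skin of the right flank. CTR mice received PBS, the fluid in which the cells were suspended, and the animals were followed for 21 days. CAC animals entered the study only if they carried a tumor. A group difference therefore compares tumor-bearing with tumor-free animals at 1 end point, and effects of the tumor and of the weight loss that goes with it cannot be told apart. The labels do not give the sex of each mouse, and in all 8 libraries the Y-linked gene Ddx3y had at least 115 counts and Xist at most 1.

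The 26S proteasome degrades proteins that carry ubiquitin chains. Its 20S core is a barrel of alpha and beta rings in which Psmb5, Psmb6 and Psmb7 cut the substrate, and its 19S particle caps the barrel, with a lid and ubiquitin receptors that take up the substrate and an ATPase ring that unfolds it. In brown fat the transcription factor NFE2L1 (gene Nfe2l1) is known to sustain proteasome gene expression during cold exposure, and in wasting skeletal muscle the ubiquitin-proteasome system is a known route of protein loss.

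Library totals ran from 2454493 to 4827956 counts in CTR (median 3164070) and from 1823167 to 3392538 in CAC (median 2460868). The proteasome genes took 0.296% to 0.325% of all counts in CTR and 0.303% to 0.313% in CAC. Levels are given as CPM, counts scaled to a common library total, on library sizes adjusted by edgeR's TMM factors, and 3 counts correspond to 0.62 to 1.65 CPM before that scaling. CPM is not divided by transcript length, so levels are compared between mice within a gene and not between genes. Markers of brown adipocytes, Ucp1 among them, were present at a summed 15874 to 17671 CPM in CTR mice and 15380 to 17671 CPM in CAC mice, with 0 of the 8 genes passing the edgeR test and 2 lower at an unadjusted p under 0.05.

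No proteasome gene passed the threshold, a Benjamini-Hochberg adjusted p of 0.05 over all genes tested in edgeR's quasi-likelihood test. Among all genes tested, 0.739% were called higher in CAC and 0.192% lower, and the smallest adjusted p of any proteasome gene was 0.312, for Psma2. At an unadjusted p under 0.05 the edgeR test gave 0 higher and 3 lower of the 34 genes (Psma2, Psma5 and Psmd3), where 7.01% and 5.93% of all genes were higher and lower at that level, and DESeq2 gave 0 higher and 1 lower, Psma2. CAC and CTR libraries did not overlap for 1 gene, Psma5, which was lower, beside 3.40% of all genes lower and 3.65% higher without overlap. Without CTR replicate 1 the edgeR test left 0 lower genes at the unadjusted level, and it left 1 without CTR replicate 2, CTR replicate 3 or CAC replicate 2. It gave 2 higher genes without CTR replicate 4, Psmc1 and Psmd4, and 1 where the library left out was CTR 1, CAC 3 or CAC 4. Leaving out any library but CTR replicate 4 raised the number of lower genes without overlap to 2 or 3, as fewer libraries overlap less often by construction. The shares over all genes are those of the main fit with all 8 libraries, and the counts with a library left out have no such share beside them. In a bulk tissue, fewer cells of a type and less RNA per cell cannot be told apart, and the p-values measure the spread between these mice.

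The log2 fold changes of CAC against CTR were small in size. They ran from -0.71 for Psma5 to 0.24 for Psmc1, with a median of -0.07, where the median over all genes tested was 0.00. The median absolute log2 fold change was 0.10 for the proteasome genes and 0.17 for all genes. All genes were not matched to the proteasome genes by read count, here or for the intervals and spreads below, and the part of read count was not tested. Of the 34 genes, 20 had a value below 0 and 14 a value above 0, against 50% of all genes on each side. Within 0.15 of 0 lay 23 genes, and 3 genes (Psma5, Psmd14 and Psmd5) were at 0.3 or more from 0. Leaving out CAC replicate 2 brought the median of the proteasome genes to 0.00.

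The intervals show how much change the data leave room for. The 95% interval of the fold change lay inside 1.2-fold in either direction for 5 of the 34 genes, inside 1.5-fold for 28 and inside 2-fold for 33, the exception at 2-fold being Psma5. Among all genes tested the shares were 2.7%, 47.4% and 85.4%. Standard errors of the log2 fold change ran from 0.10 to 0.30 with a median of 0.12, against a median of 0.20 over all genes. In the plot of fold changes by role, all intervals but those of Psma2, Psma5 and Psmd3 crossed 0.

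**Figure D1:**
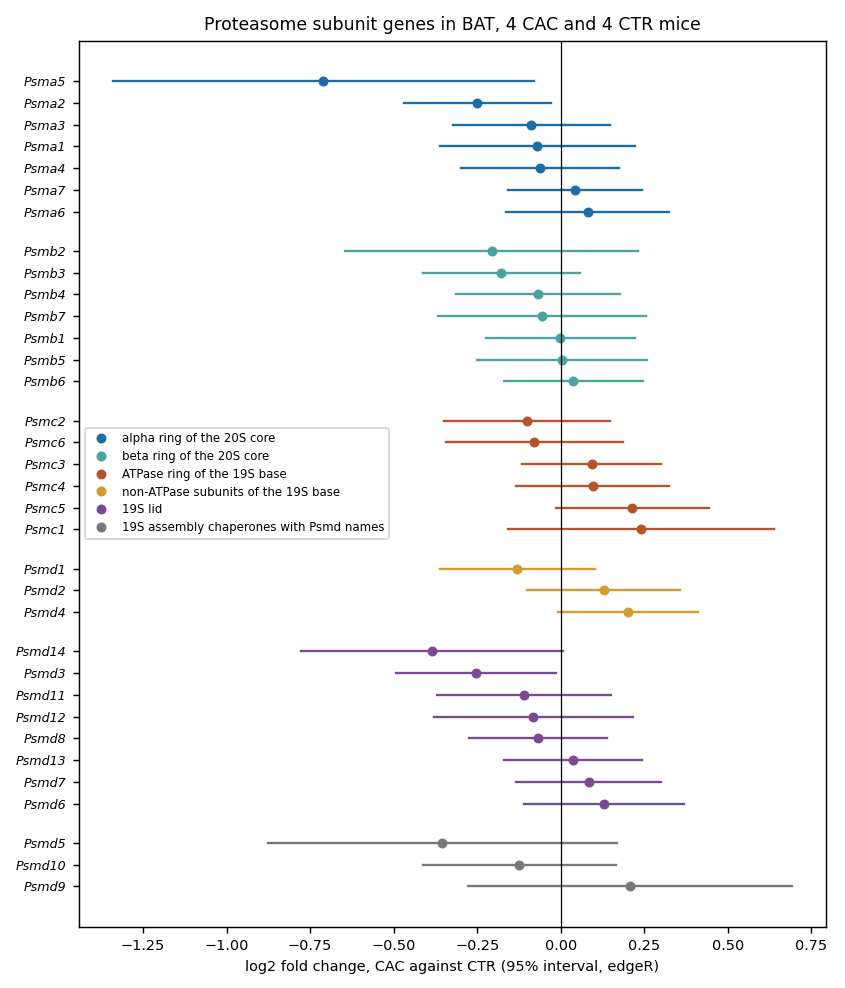
The horizontal axis gives the log2 fold change of CAC against CTR (points) with its 95% interval (lines) from edgeR for the 34 proteasome genes tested, 4 mice a group, colored by role. The intervals of Psma5, Psma2 and Psmd3 lie below 0 without correction for multiple testing, and the lowest adjusted p is 0.312.

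Summed transcript levels of the complex overlapped between the groups. The sum over all members was 3122, 3066, 3082 and 3125 CPM in CTR replicates 1 to 4 and 3223, 2974, 3060 and 3172 CPM in CAC mice replicates 1 to 4. The CAC mean of 3107 ± 112 CPM (SD, n = 4) was 100.27% of the CTR mean of 3099 ± 29.5 CPM (SD, n = 4), and the CAC libraries spread to both sides of the CTR range. The 20S core summed to 1323 ± 45.9 CPM in CTR mice and 1275 ± 70.8 CPM in CAC mice (SD, n = 4 each), which is 96.4% of CTR. The 19S particle summed to 1730 ± 62.5 CPM in CTR mice and 1789 ± 47.4 CPM in CAC mice (SD, n = 4 each), which is 103% of CTR. The groups overlapped in both sums, and no test was made on sums over the members. The log2 ratio of 20S core to 19S particle transcripts was -0.39 ± 0.10 among CTR mice and -0.49 ± 0.05 among CAC mice (SD, n = 4 each), with overlapping libraries.

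**Figure D2:**
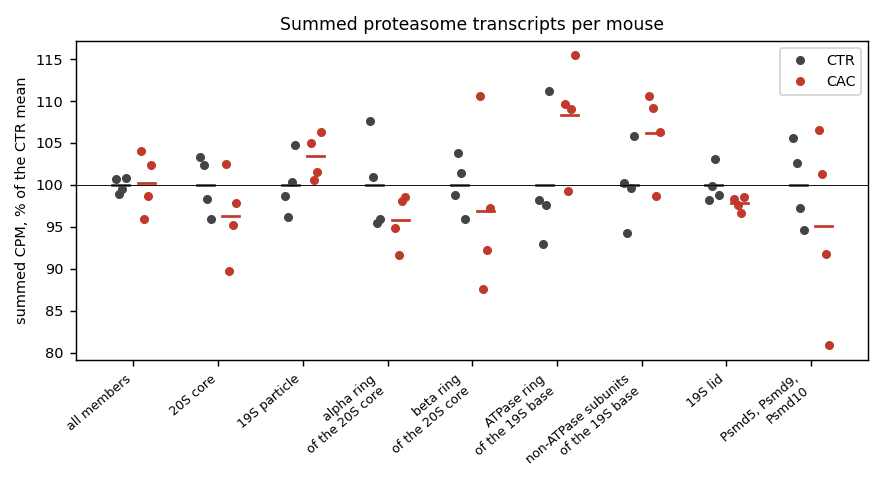
Each point is 1 mouse, the vertical axis gives the CPM summed over a group of proteasome genes as a percentage of the CTR mean, and the short bars are group means of 4 mice. The CAC mean is at 100.27% for all members, 96.4% for the 20S core and 103% for the 19S particle, and CAC and CTR points overlap in these sums.

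The alpha ring forms the outer rings of the core and gates its entrance. Its 7 tested genes had a median log2 fold change of -0.07, with 2 above 0 and 5 below. The 2 members of the set with the smallest p, Psma2 and Psma5, belong to it. Psma2 (ENSMUSG00000015671.12, chr13:14613240-14674236, plus strand, GRCm38) encodes a gate-forming alpha subunit. Its level was 157, 169, 136 and 140 CPM in CTR mice and 131, 114, 124 and 137 CPM in CAC mice. CAC replicate 4 lay just inside the CTR range and the other CAC mice below it. Its log2 fold change was -0.25 ± 0.11 (SE), a difference of -15.9% with a 95% interval from -27.8% to -2.0% (edgeR unadjusted p = 0.0284, adjusted p = 0.312).

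Psma5 (ENSMUSG00000068749.10, chr3:108256926-108279974, plus strand) encodes another alpha subunit and had few reads, 5 to 23.5 counts per library. Its level was 6.06, 6.33, 5.75 and 4.15 CPM in CTR mice and 2.68, 2.63, 3.48 and 4.14 CPM in CAC mice. Every CAC mouse was below every CTR mouse, but CTR replicate 4 and CAC replicate 4 were nearly equal, and the groups overlapped when library size alone set the scale. On the log2 scale the difference was -0.71 ± 0.30 (SE), with a 95% interval from -1.34 to -0.08 (edgeR unadjusted p = 0.0291, adjusted p = 0.316). Its exons overlap those of 1700010K24Rik on the opposite strand, and whether the counting used strand is not given in the sources used here. Psma3 was at 94.6 ± 6.51 CPM in CTR mice and 88.6 ± 10.3 CPM in CAC mice (SD, n = 4 each), and the other alpha genes, Psma1, Psma4, Psma6 and Psma7, had log2 fold changes between -0.07 and 0.08. Psma8, the testis form of an alpha subunit, had no count in any library, which allows up to 0.62 to 1.65 CPM by a limit of 3 counts, and was not tested.

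The beta ring holds the proteolytic sites. Its 7 tested genes had a median log2 fold change of -0.06, with 2 above 0 and 5 below, and their smallest adjusted p in edgeR was 0.544, for Psmb3. Psmb5, the chymotrypsin-like subunit, was at 91.6, 106.5, 91.6 and 91.7 CPM in CTR mice and 122, 87.4, 87.6 and 87.3 CPM in CAC mice. Within each group 1 mouse stood above 3 nearly equal ones, CTR replicate 2 and CAC replicate 1. The log2 fold change of Psmb5 was 0.00 ± 0.12 (SE), with a 95% interval from -0.25 to 0.26, and it was -0.12 without CAC replicate 1.

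Psmb6, the caspase-like subunit, was at 119, 131, 134 and 140 CPM in CTR mice and 142, 125, 134 and 136 CPM in CAC mice, a log2 fold change of 0.04 with a 95% interval from -0.17 to 0.25. Psmb7, the trypsin-like subunit, was at 29.9, 31.6, 25.9 and 30.3 CPM in CTR mice and 22.5, 24.7, 29.6 and 35.2 CPM in CAC mice, a log2 fold change of -0.06 with a 95% interval from -0.37 to 0.26. The groups overlapped for all 3 catalytic subunits. Exons of Psmb7 overlap those of Nek6 on the opposite strand, and Psmb5 holds Mir686 on the same strand. Psmb2, Psmb3 and Psmb4 are structural beta subunits without a catalytic site. Psmb3 was at 126 ± 7.23 CPM in CTR mice and 112 ± 16.8 CPM in CAC mice (SD, n = 4 each), with CAC replicate 1 above all CTR mice and the other 3 below them. Psmb2 (log2 fold change -0.21) and Psmb4 (-0.07) overlapped between groups, and Psmb1 was at -0.00088. Psmb11, the thymus form, had at most 5 counts in any library and was not tested.

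Promoters are printed for the core, because the core holds both the lowest fold change and the catalytic genes whose levels were near those of CTR. The windows are RefSeq promoters on GRCm38.p6, 250 bases before to 50 bases after the start of transcription, found for 29 of the 36 members. Capitals mark TGACNNNGC, the core letters of the antioxidant response element that NFE2L1 and NFE2L2 bind, searched on both strands. The Psma5 window (chr3:108256676-108256975, plus strand) has no match, the Psmb5 window (chr14:54617946-54618245, minus strand) has 1 match from position -47 relative to the start, and the Psmb6 window (chr11:70525107-70525406, plus strand) has 1 from position -9.
Psma5: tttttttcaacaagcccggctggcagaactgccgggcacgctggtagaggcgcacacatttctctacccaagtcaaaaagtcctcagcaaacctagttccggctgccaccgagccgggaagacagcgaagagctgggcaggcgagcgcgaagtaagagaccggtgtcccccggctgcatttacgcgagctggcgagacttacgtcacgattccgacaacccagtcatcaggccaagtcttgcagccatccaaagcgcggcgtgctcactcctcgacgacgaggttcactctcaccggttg
Psmb5: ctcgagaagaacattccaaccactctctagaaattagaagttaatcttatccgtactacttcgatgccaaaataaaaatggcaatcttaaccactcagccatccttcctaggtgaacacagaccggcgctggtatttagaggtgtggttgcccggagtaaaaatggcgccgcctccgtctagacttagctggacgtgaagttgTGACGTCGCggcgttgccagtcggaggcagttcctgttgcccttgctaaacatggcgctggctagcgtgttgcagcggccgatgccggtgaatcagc
Psmb6: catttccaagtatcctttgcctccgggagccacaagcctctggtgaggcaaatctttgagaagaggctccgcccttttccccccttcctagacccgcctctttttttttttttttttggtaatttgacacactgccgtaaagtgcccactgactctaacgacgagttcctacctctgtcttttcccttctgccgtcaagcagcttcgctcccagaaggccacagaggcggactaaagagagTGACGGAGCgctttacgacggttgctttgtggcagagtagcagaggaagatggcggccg

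Across the members, TGACNNNGC was found in the windows of 5 of 29 genes, or 17.2% (Psmb5, Psmb6, Psmc6, Psmd9 and Psmd12), against 14.0% of the 27025 genes of the RefSeq table. The form with an A added at the end was found in 1 of 29 members, 3.45%, and in 3.45% of all genes. CCAAT, the letters of the NF-Y box, were found in 12 of 29 members, or 41.4%, and in 41.1% of all genes, also on both strands and independent of any overlap with the other motif. These shares describe letters within 300 bases and do not show binding.

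The ATPase ring of the 19S base unfolds substrates and feeds them into the core. It and the non-ATPase base subunits had the only medians above 0 among the role groups, 0.09 for 6 ATPase genes (4 above 0, 2 below) and 0.13 for 3 non-ATPase genes (2 above, 1 below). Psmc5 was at 125, 106, 110 and 109 CPM in CTR mice and 154, 129, 123 and 118 CPM in CAC mice. CAC replicates 1 and 2 were above all CTR mice and the other 2 were within their range. Between the groups the log2 fold change was 0.21 ± 0.11 (SE), with a 95% interval from -0.01 to 0.44 (edgeR adjusted p = 0.422).

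Psmc1 had the highest fold change of the set, 0.24 ± 0.18 (SE), with an edgeR adjusted p of 0.637, and its value was 0.12 without CAC replicate 4. It was at 128, 112, 126 and 199 CPM in CTR mice and 150, 138, 171 and 207 CPM in CAC mice. CTR replicate 4 was far above the other CTR mice and was exceeded by CAC replicate 4 alone. Without CTR replicate 4 the groups did not overlap, the log2 fold change of Psmc1 was 0.46 and its edgeR adjusted p was 0.0992, the lowest that any proteasome gene reached in any of 18 alternative fits. Psmc3 was at 158 ± 9.55 CPM in CTR mice and 169 ± 14.1 CPM in CAC mice (SD, n = 4 each), and the log2 fold changes of Psmc2, Psmc4 and Psmc6 lay between -0.10 and 0.10.

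Psmd4 is a ubiquitin receptor of the base, and Psmd1 and Psmd2 are its large scaffold subunits. Psmd4 was at 154, 147, 159 and 168 CPM in CTR mice and 202, 188, 161 and 174 CPM in CAC mice. CAC replicate 3 was within the CTR range and the other 3 CAC mice were above it. The log2 fold change was 0.20 ± 0.10 (SE), with a 95% interval from -0.01 to 0.41 (edgeR adjusted p = 0.409). The Psmd4 counts held fractions of reads in all 8 libraries, as arise when a read is shared between genes or places in the genome. Psmd1 and Psmd2 differed in sign, at -0.13 and 0.13, and their intervals, -0.36 to 0.10 and -0.10 to 0.36, both held 0. With 1 library left out Psmd1 ran from -0.19 to -0.05 and Psmd2 from 0.08 to 0.17.

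The lid prepares ubiquitinated substrates. Its 8 genes had a median log2 fold change of -0.08, with 3 above 0 and 5 below. Psmd14 (ENSMUSG00000026914.16, chr2:61711694-61800376, plus strand) encodes the deubiquitinase that removes ubiquitin chains as the substrate enters. Its level was 31.7, 30.9, 26.7 and 22.7 CPM in CTR mice and 14.99, 16.3, 29.6 and 21.4 CPM in CAC mice. CAC replicates 1 and 2 were well below the CTR range, replicate 4 just below it and replicate 3 within it. Its log2 fold change was -0.39 ± 0.19 (SE), with a 95% interval from -0.78 to 0.01 (edgeR adjusted p = 0.395), and without CAC replicate 3 it was -0.64 with an edgeR adjusted p of 0.142.

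Psmd3 (ENSMUSG00000017221.15, chr11:98682554-98695979, plus strand), a structural lid subunit whose exons overlap those of Gm12356 on the opposite strand, was at 55.6, 49.1, 53.4 and 55.9 CPM in CTR mice and 42.3, 50.6, 42.9 and 44.2 CPM in CAC mice. CAC replicate 2 was within the CTR range and the other 3 CAC mice were below it. On the log2 scale the difference was -0.25 ± 0.12 (SE), a difference of -16.1% with a 95% interval from -28.9% to -0.96% (edgeR unadjusted p = 0.0391, adjusted p = 0.350). Psmd6 was at 49.4 ± 4.29 CPM in CTR mice and 54.1 ± 3.46 CPM in CAC mice (SD, n = 4 each), with 3 of 4 CAC mice above all CTR mice. The other lid genes, Psmd7, Psmd8, Psmd11, Psmd12 and Psmd13, lay between -0.11 and 0.08 on the log2 scale.

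**Figure D3:**
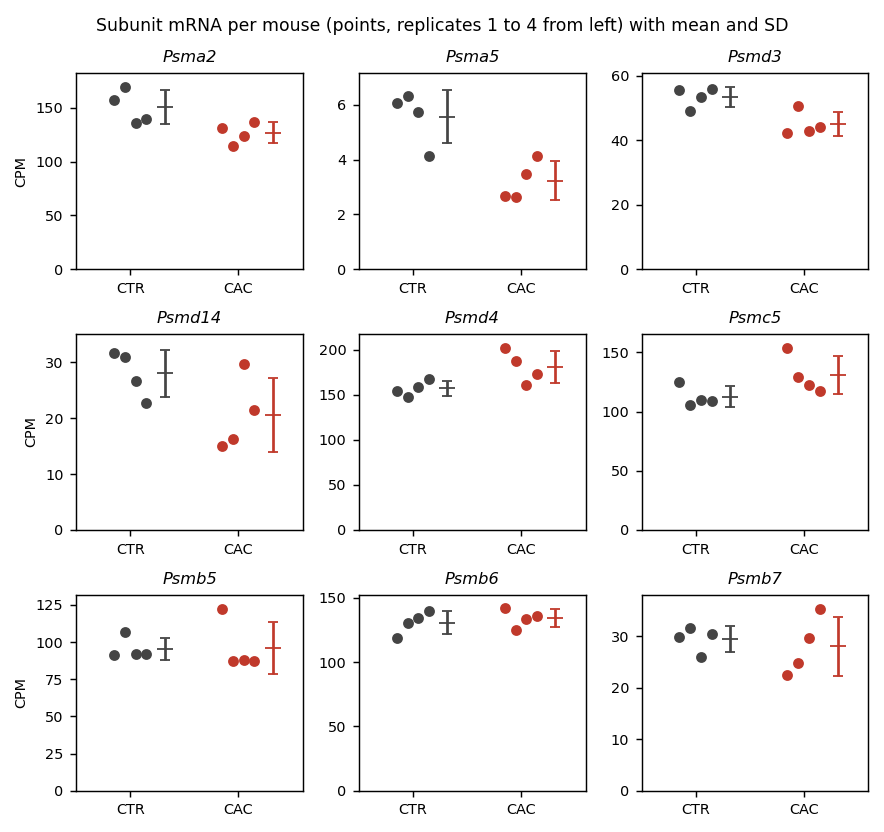
Each panel gives the CPM of 1 proteasome gene on the vertical axis for 4 CTR and 4 CAC mice (points, replicates 1 to 4 from left), with the group mean and SD at the right of the points. The groups are apart for Psma5 alone, by 4.14 against 4.15 CPM at the closest pair, and Psmb5 has 1 high mouse in each group.

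Psmd5, Psmd9 and Psmd10 carry subunit names but are chaperones that help to assemble the base and then leave it. Psmd5 had 7.93 ± 1.14 CPM in CTR mice and 6.36 ± 1.597 CPM in CAC mice (SD, n = 4 each), a log2 fold change of -0.35 with a 95% interval from -0.88 to 0.17, and CAC replicate 4 was the lowest library at 4.14 CPM. Without that library the log2 fold change of Psmd5 was -0.17. Psmd9 was at 8.80 ± 1.91 CPM in CTR mice and 10.5 ± 2.35 CPM in CAC mice (SD, n = 4 each), a log2 fold change of 0.21, and Psmd10 was at -0.12. With 1 library left out Psmd9 ran from 0.09 to 0.32 and Psmd10 from -0.18 to -0.07. The smallest edgeR adjusted p of these 3 genes was 0.596, and the standard errors of Psmd5 (0.25) and Psmd9 (0.23) were the largest of the set after that of Psma5.

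The spread between mice was compared within each group. The coefficient of variation over 4 mice had a median of 7.81% in CTR and 12.1% in CAC over the proteasome genes, and it was larger in CAC for 23 of 34 genes. Over all genes tested the medians were 15.6% and 18.7%, and 61.0% of genes had the larger value in CAC. The deviation of each gene from its CTR mean had a spread over the 34 genes (SD of log2 values) of 0.14, 0.12, 0.11 and 0.18 in CTR replicates 1 to 4 and of 0.35, 0.31, 0.18 and 0.26 in CAC replicates 1 to 4. CTR mice help to set the CTR mean, which makes their deviations smaller by construction. Among all 8 libraries, CTR replicates 1 to 4 were the lowest for 5, 3, 4 and 2 genes and the highest for 7, 2, 2 and 3. CAC replicates 1 to 4 were the lowest for 7, 8, 2 and 3 genes and the highest for 7, 3, 3 and 7, so extreme values were found in both groups, CTR replicate 1 included. The largest spreads were those of CAC replicates 1 and 2, the libraries with the fewest counts, 1985613 and 1823167, and the part of depth in the spread was not tested.

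**Figure D4:**
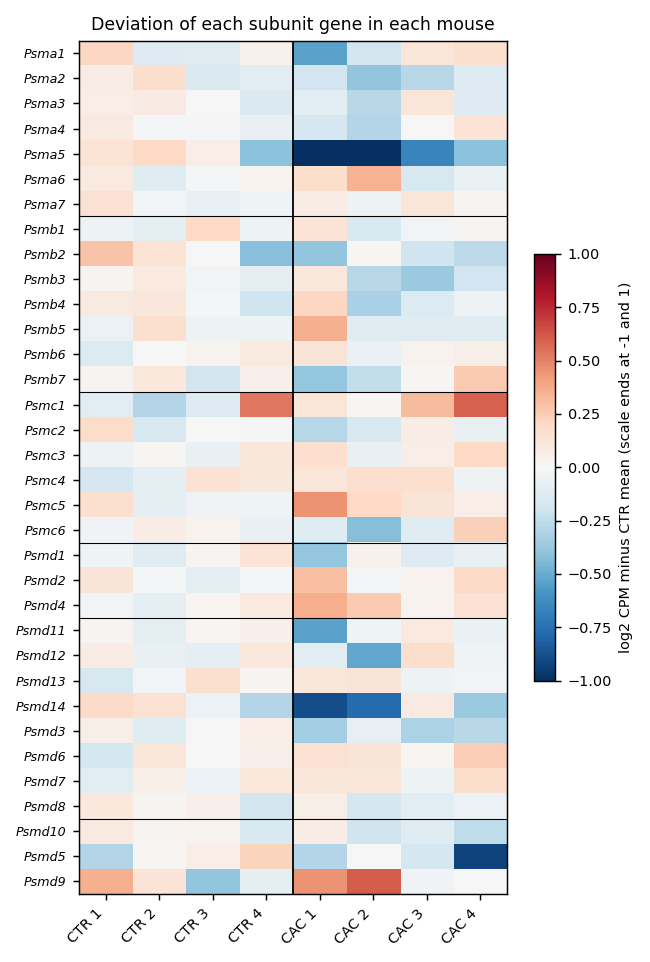
Rows are the 34 proteasome genes tested, grouped by role, columns the 8 mice, and the color gives the log2 CPM minus the mean over CTR mice on a scale that ends at -1 and 1. CAC replicates 1 and 2 hold genes with both high and low values, with a spread over genes of 0.35 and 0.31 against 0.11 to 0.18 in CTR.

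The other ubiquitin-proteasome genes were taken from a list of 68 genes in the table, of which 64 were tested. None passed the edgeR threshold, beside 0.739% of all genes called higher and 0.192% lower. At an unadjusted p under 0.05, 2 of the 64 were higher (Ddi2 and Fbxo32) and 3 lower (Sem1, Ube2r2 and Ube2v1), where 7.01% and 5.93% of all genes were higher and lower, and DESeq2 called 1 lower, Ube2v1. In log2 fold change 27 were above 0 and 37 below, with a median of -0.03 and a smallest adjusted p of 0.168, for Fbxo32. The inducible subunits replace the catalytic ones in the immunoproteasome of immune and interferon-treated cells. Psmb8 was at 11.4 ± 1.73 CPM in CTR mice and 9.74 ± 2.42 CPM in CAC mice, Psmb9 at 3.499 ± 2.25 and 4.29 ± 1.42 CPM, and Psmb10 at 23.1 ± 5.19 and 21.4 ± 4.11 CPM (SD, n = 4 each), with overlapping groups in each case.

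The balance between inducible and constitutive catalytic subunits was compared per mouse as a log2 ratio of counts. The CAC-minus-CTR difference was -0.24 for Psmb8 over Psmb5, 0.42 for Psmb9 over Psmb6 and -0.01 for Psmb10 over Psmb7. Exact two-sided permutation tests, 3 in all, gave p = 0.686, p = 0.457 and p = 0.971, each 0.971 after Benjamini-Hochberg adjustment, where 4 against 4 mice cannot go below 0.0286. Psmb9 had 4 to 24 counts per library, so its ratio is imprecise, and the difference of its ratio ran from 0.13 without CTR replicate 4 to 0.77 without CTR replicate 2. The difference for Psmb8 over Psmb5 changed sign, to 0.06, without CAC replicate 1. With 1 library left out, that for Psmb10 over Psmb7 ran from -0.15 to 0.09. The activator genes Psme1 (log2 fold change -0.12) and Psme2 (-0.26, edgeR adjusted p = 0.409), which open the core without the 19S particle, had overlapping groups.

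Among the regulators, Nfe2l1 was at 74.5, 59.1, 49.7 and 82.1 CPM in CTR mice and 49.2, 49.5, 61.8 and 64.9 CPM in CAC mice. Its groups overlapped, and the log2 fold change of -0.23 had a 95% interval from -0.54 to 0.08 (edgeR adjusted p = 0.547). Without CTR replicate 4, its highest library, the log2 fold change was -0.10. Ddi2, the protease that cuts and activates NFE2L1, was at 18.5, 23.7, 20.1 and 24.9 CPM in CTR mice and 30.5, 26.9, 26.7 and 34.2 CPM in CAC mice. All CAC mice were above all CTR mice, with a log2 fold change of 0.42 ± 0.15 (SE) and an edgeR adjusted p of 0.216. Zfand5, which binds the proteasome, was at 0.28 on the log2 scale with overlapping groups.

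Sem1, a small lid subunit without a Psm name, was at 22.1, 24.8, 16.8 and 19.2 CPM in CTR mice and 16.6, 10.5, 18.0 and 14.2 CPM in CAC mice. The groups overlapped through CAC replicate 3, and the log2 fold change was -0.47 ± 0.19 (SE, edgeR adjusted p = 0.272). Adrm1, another ubiquitin receptor of the proteasome, was at 0.13 and the deubiquitinase Usp14 at 0.15. The assembly genes Psmg2 (-0.32) and Ecpas (-0.16), the shuttle factor Ubqln4 (-0.15) and the ubiquitin gene Rps27a (-0.10) had overlapping groups as well (log2 fold changes in parentheses), and their values moved by more than 1.5 times with 1 library left out.

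Ube2v1, a catalytically inactive E2 partner of Ube2n, gave the widest difference of the list. It was at 43.5, 40.9, 15.6 and 98.2 CPM in CTR mice and 14.5, 13.2, 13.9 and 12.1 CPM in CAC mice. The CAC mice were close together below all CTR mice, and the CTR mice were scattered, with replicate 3 near the CAC level and replicate 4 the highest. Between the groups the log2 fold change was -1.93 ± 0.59 (SE) with an edgeR adjusted p of 0.254, and the gene was called by DESeq2 (adjusted p = 0.0417) and by edgeR without CTR replicate 3 (adjusted p = 0.0431). Its counts too held fractions of reads in all 8 libraries. Ube2r2, an E2 enzyme of cullin ligases, was at -0.26 (edgeR adjusted p = 0.313) without overlap between groups.

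Fbxo32, the muscle-atrophy ubiquitin ligase, was at 11.4, 10.5, 11.1 and 9.61 CPM in CTR mice and 14.99, 23.7, 11.3 and 18.0 CPM in CAC mice. CAC replicate 3 was within the CTR range and the other CAC mice were above it, with a log2 fold change of 0.65 ± 0.21 (SE, edgeR adjusted p = 0.168), and Fbxo31 was at 0.34. All 9 skeletal muscle markers had log2 fold changes above 0, with 0 passing the edgeR threshold and 5 at an unadjusted p under 0.05, and their sum ran from 1237 to 3090 CPM in CTR mice and from 2665 to 4940 CPM in CAC mice. Their part in the values of Fbxo32 was not tested.

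**Figure D5:**
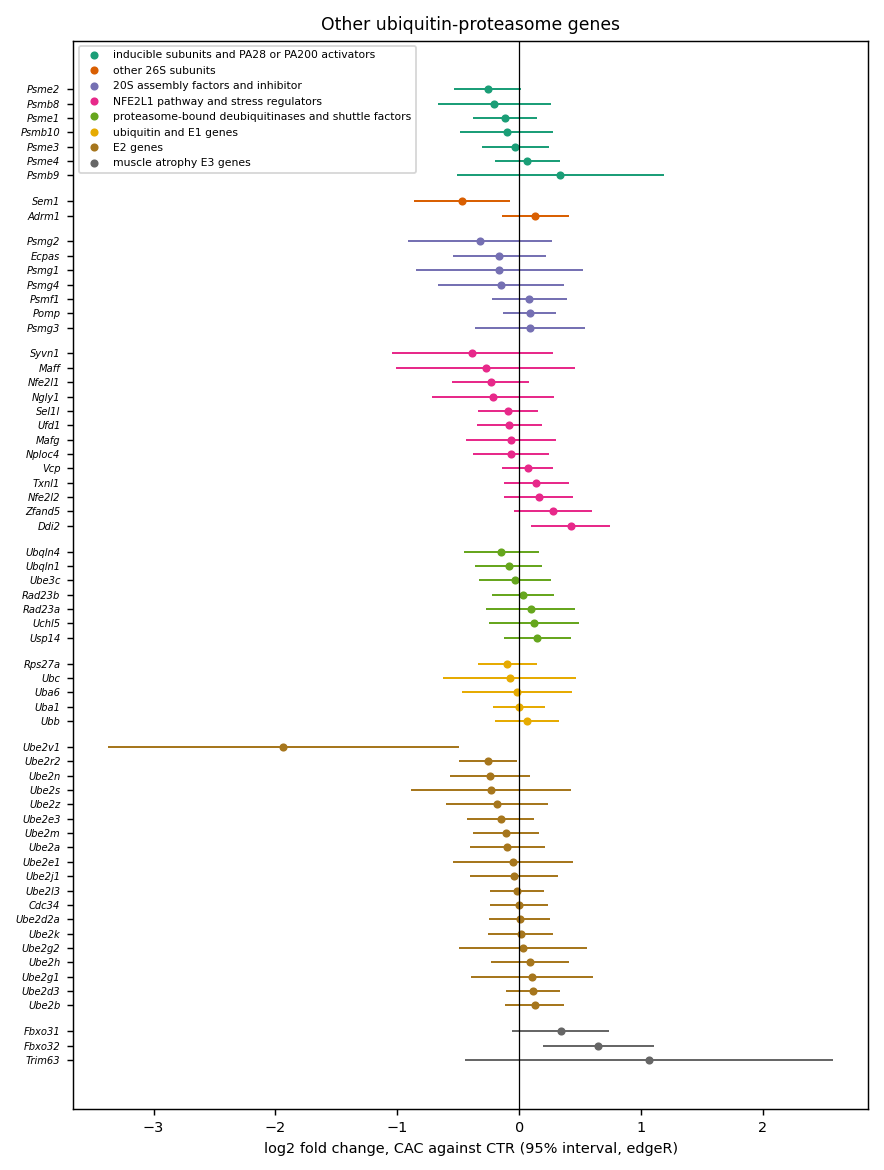
The horizontal axis gives the log2 fold change of CAC against CTR (points) with its 95% interval (lines) from edgeR for the other ubiquitin-proteasome genes reported here, 4 mice a group, colored by list. Ube2v1 lies farthest from 0 at -1.93, Ddi2 is at 0.42 and Fbxo32 at 0.65, and none has an adjusted p under 0.168.

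Markers of other cells were also compared between the groups. Of 8 markers listed for neutrophils 3 could be tested, S100a8, S100a9 and Retnlg, and all 3 were called higher in CAC by edgeR. Other cells than neutrophils can also express S100a8 and S100a9, which made up most of the sum over the list in CAC, and the 5 markers not tested were at 3.21 CPM or below in every library. The list had sums of 6.41 to 6.86 CPM in CTR mice and 163 to 428 CPM in CAC mice. Of 9 macrophage and monocyte markers 7 were tested, all with log2 fold changes above 0, 4 of them at an unadjusted p under 0.05 and 2 called higher (C1qa and C1qb), with sums of 202 to 227 CPM in CTR mice and 283 to 391 CPM in CAC mice. All 6 erythroid markers had log2 fold changes above 0 (median 1.56), 5 of them at an unadjusted p under 0.05 and 1 called higher (Slc4a1), with sums of 6119 to 19081 CPM in CTR mice and 14493 to 43893 CPM in CAC mice. The 5 endothelial markers tested of 6 (sums of 194 to 313 CPM over both groups) and the 7 of fibroblasts and progenitors (388 to 550 CPM) gave 0 calls in edgeR, with 1 gene of each list lower at an unadjusted p under 0.05. Of the 6 markers listed for T and NK cells (8.97 to 20.6 CPM) only Ptprc, which all leukocytes express, could be tested. Its log2 fold change was 0.85 (edgeR unadjusted p = 0.00751, adjusted p = 0.182), and the markers specific to T and NK cells were too low to test. No marker of any list was at 0 in all libraries. Proteasome genes are expressed in all these cell types, and the part of these markers in the levels above was not tested.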

How the data were processed

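RNA from BAT of 8 mice, 4 CTR and 4 CAC, was sequenced single-end by the authors. Per the submitters' processing notes, the tools were FastQC 0.11.9, HISAT2 2.2.1 and featureCounts on mm10; the strand setting is not given in the sources used here. The authors deposited a table of estimated counts per gene, with fractions of a read in at least 1 library for 16 of 36 members, as arise where a read is shared between genes or places, and a normalized signal table, which equalled the counts without decimals divided by size factors in 100% of values within a relative tolerance of 1e-06. Every column was mapped to a mouse, and none was left unused.

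Counts were rounded to whole numbers, filtered with filterByExpr, scaled by TMM and tested with edgeR 4.0.16 (robust quasi-likelihood test, R 4.3.3) with Benjamini-Hochberg adjustment over 9876 genes. The authors used DESeq2, which was run as an alternative (version 1.42.0). Log2 fold changes have 95% intervals from the same fit. Ratios of subunits used a pseudocount of 0.5 and exact permutation over 70 assignments. Other alternatives were library size alone, upper quartile scaling, 2 other filters, a replicate block, limma 3.58.1 on the normalized table (pseudocount 1), counts without decimals, library sizes without mitochondrially encoded genes, added -ps entries and each library left out. The code was tested on simulated data. The 5 -ps entries held 0 counts in all libraries. Genes of few reads carry more counting error for their level, but the part of depth was not tested. The intervals cover the spread between 8 mice only.

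Coordinates were read from GENCODE for GRCm38 and RefSeq promoters from GRCm38.p6. Exons of 9 members overlap those of another gene. Named genes were those passing the threshold, those at an unadjusted p under 0.05 without overlap, the 3 of smallest p in each role group, Psmb5, Psmb6 and Psmb7, members not tested and, of each other list, the 2 of smallest p with Nfe2l1, Psmb8, Psmb9 and Psmb10. Other genes named by value were added to complete a role group, and 1 gene that the rule names is not reported here. The members, gene lists and marker lists (brown adipocyte, macrophage and monocyte, neutrophil, skeletal muscle, erythroid, endothelial, fibroblast and progenitor, T and NK cell) were chosen with earlier results of these data known.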

Additional observations from a re-analysis of the deposited data

Results flagged for a closer look

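Psmb5 stood out in both groups by the gap of 1 mouse to the others, relative to the range of the group (Dixon's criterion at the 95% level). In CTR, replicate 2 was at 106.55 CPM and the other 3 mice at 91.6 to 91.7 CPM. In CAC, replicate 1 was at 122.05 CPM and the other 3 mice at 87.3 to 87.6 CPM. Psmb1 met the same criterion in CTR, where replicate 3 was at 139.72 CPM and the other 3 mice at 114 to 118 CPM. The values examined were those of the 34 proteasome genes tested, the other genes named, the summed levels and the subunit ratios. Of these 130 groups of 4 values, 3 met the criterion, where chance alone gives about 1 in 20, or 6.5 of 130.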

How the results depend on the processing

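The count of proteasome genes called was 0 in all 18 alternative fits, with a smallest adjusted p between 0.0992 (edgeR without CTR replicate 4) and 0.467 (DESeq2). Members at an unadjusted p under 0.05 were 0 to 2 higher and 0 to 3 lower with 1 library left out, 1 lower with DESeq2 and 5 lower with no filter on low counts. Members without overlap were 1 higher and 0 lower with library size alone, 2 lower with upper quartile scaling, 2 lower with no filter, 0 lower with at least 10 counts in every library, which drops Psma5, and 0 to 2 higher and 1 to 3 lower with 1 library left out. No share over all genes is given for these alternative fits, so their counts at the unadjusted level and without overlap cannot be set against a background. The median of the members ran from -0.067 to 0.0043 (without CAC replicate 2) with 1 library left out, that of the alpha ring from -0.15 to -0.025, that of the beta ring from -0.12 to 0.0064 (without CAC replicate 2) that of the ATPase ring from 0.058 to 0.14, that of the non-ATPase base from 0.076 to 0.17, that of the chaperones from -0.18 to -0.073 and that of the lid from -0.13 to -0.015; the lid was at -0.10 both with upper quartile scaling and with no filter. The call of Ube2v1, 1 lower gene of the other ubiquitin-proteasome genes, appeared with DESeq2 and without CTR replicate 3, so that the range was 0 to 1 with 1 library left out. The longer motif was in 1 promoter. The cause of these differences was not tested.

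No label pairs mice by replicate number. Deviations of same-numbered CTR and CAC libraries had correlations of 0.03, -0.02, 0.03 and 0.04 across genes, which cannot show how the mice were numbered or handled. The replicate block called 140 of all 9876 genes tested, where the fit without it called 73 higher and 19 lower. With the replicate block, 1 member (Psmc1) was higher at an unadjusted p under 0.05, 0 were called, and the log2 fold change of Psmb5 was -0.0024. Counts of overlap were not made for the block or DESeq2, and added -ps entries changed no value.

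Values near 0 changed sign. Psmb5 was at -0.016 with library size alone, -0.018 with upper quartile scaling, -0.023 with no filter, -7.5e-05 with at least 10 counts and -0.0011 with limma, and from -0.12 to 0.060 with 1 library left out. Over the libraries left out Psmb4 ran from -0.16 to 0.0064, Psmb6 from -0.0066 to 0.080, Psmb7 from -0.18 to 0.032 and Psmb10 from -0.25 to 0.020. Others kept their sign but moved by over 1.5 times: Psma3 (-0.17 to -0.034), Psmb2 (-0.34 to -0.11), Psmb3 (-0.27 to -0.12), Psmc3 (0.062 to 0.14), Psmc5 (0.14 to 0.27), Psmd6 (0.073 to 0.17), Psmd14 (-0.64 to -0.27), Psmb8 (-0.29 to -0.068), Psmb9 (0.055 to 0.84), Psme1 (-0.16 to -0.056), Adrm1 (0.049 to 0.26), Usp14 (0.10 to 0.23), Psmg2 (-0.46 to -0.051), Ecpas (-0.30 to -0.059), Ubqln4 (-0.24 to -0.072), Rps27a (-0.16 to -0.022) and Fbxo31 (0.22 to 0.47). So did Psmc1, Psmd1, Psmd2, Psmd5, Psmd9, Psmd10 and Nfe2l1, whose values are given with each gene above. The log2 ratio difference of Psmb10 over Psmb7 was 0.00024 on counts without decimals and ran from -0.15 to 0.087 with 1 library left out, that of Psmb8 over Psmb5 from -0.37 to 0.063 and that of Psmb9 over Psmb6 from 0.13 to 0.77. Psma5, Psmb9 and Psmd5 had few reads, and the part of depth in their values was not tested.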
